A study of Caenorhabditis elegans with 12 samples.

Results

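The genes described here are cyp-13A3, cyp-13A4, cyp-13A5, cyp-13A6 and cyp-13A7 of Caenorhabditis elegans, 5 of the 27928 genes of the deposited count table, found by matching the table's sequence names (T10B9.5, T10B9.1, T10B9.2, T10B9.3 and T10B9.10) to the WBcel235 annotation. They lie close together on chromosome II within a longer run of cyp-13A genes. The cluster was singled out with the comparison of vitamin D and vehicle already known, and the 5 genes are the cyp-13 genes that passed the significance threshold in it, so their values in that comparison are a description and not a test. Just inside the threshold of 0.05 lay cyp-13A3 (edgeR adjusted p = 0.0441), and just outside it lay cyp-13A10 (edgeR adjusted p = 0.118) and cyp-13A9 (edgeR adjusted p = 0.119).

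The table holds 12 libraries, each from the RNA of a pool of N2 worms, the wild-type strain, kept on NGM agar at 20 °C. Of the pools, 6 were exposed to vitamin D and 6 to its vehicle, DMSO, for 44 h. The labels give the dose as 100 µM in one place and 100 mM in another, the pool size as 50 or 40 worms, and the start of treatment as the L4 stage or 1 day of age. The pools are called independent biological replicates in the series text. In whole worms, fewer cells of a type and less RNA per cell cannot be told apart.

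Cytochromes P450 are heme-containing monooxygenases that insert oxygen into lipophilic compounds, which prepares foreign chemicals for conjugation and export and also takes part in the metabolism of steroids and fatty acids. They take electrons from a shared NADPH-dependent reductase, in some reactions with cytochrome b5. The worm CYP13 family belongs to the same clan as the mammalian CYP3 enzymes, and in humans the CYP3A4 gene of that clan is a known transcriptional target of the vitamin D receptor and of the pregnane X receptor. Among the worm genes, cyp-13A7 is known for its response to rifampicin, a ligand of the human pregnane X receptor. The series title places the study on vitamin D, protein homeostasis and longevity.

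Depth was similar across pools, at 30203731 to 38720736 counts per library. Vehicle libraries 2 and 3 stood apart from the rest: the median log2 deviation of 37 sperm genes was -1.60 and -1.93 there, 0.86 to 1.36 in the other vehicle libraries, and -0.48 to 0.75 on vitamin D. The fold changes are therefore also given without them. Levels below are counts per 1000000 counts of a library, with TMM normalization factors applied (CPM). All 2800 table entries on chromosome III held 0 counts in every library, so the genes of that chromosome gave no measurement.

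The 5 genes span 16717 bp of chromosome II (WBcel235), from 9788797 to 9805513. In order of position they are cyp-13A3 (9788797 to 9793297), cyp-13A4 (9795756 to 9797740), cyp-13A5 (9798277 to 9800362) and cyp-13A6 (9800758 to 9802821), all on the minus strand, and cyp-13A7 (9803620 to 9805513) on the plus strand. The gaps are short, with 536 bp between cyp-13A4 and cyp-13A5, 395 bp between cyp-13A5 and cyp-13A6 and 798 bp between the divergent starts of cyp-13A6 and cyp-13A7. The whole run holds 9 cyp-13A genes over 28389 bp. The other 4 are cyp-13A1 and cyp-13A2 on the low-coordinate side, the pseudogene cyp-13A9 between cyp-13A3 and cyp-13A4, and cyp-13A8, which meets cyp-13A7 tail to tail across 86 bp. The nearest coding genes outside the run are nssp-22, 3290 bp from cyp-13A1, and eyg-1, 18878 bp from cyp-13A8.

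The 5 genes also share a gene structure, which played no part in their choice. Each has 6 coding exons, and exons 2 to 5 measure 332, 100, 557 and 144 bp in all 5. The first coding exon is 186 bp long in 4 of them and 180 bp in cyp-13A6, and the last is 241 bp in 4 and 235 bp in cyp-13A7. Predicted proteins are accordingly 518 residues long for cyp-13A6 and cyp-13A7 and 520 residues for the others. None of the other coding cyp-13A genes of chromosome II has this set of lengths: cyp-13A1 has 10 coding exons, cyp-13A2 has 5, and cyp-13A8 and cyp-13A10 have 7 each. Introns do differ, since cyp-13A3 carries introns of 611 and 2002 bp while the longest intron of cyp-13A7 is 70 bp. Genes this alike can share reads of 50 bp, and no source used here says how such reads were assigned, so the level of each single gene is uncertain.

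**Figure D1:**
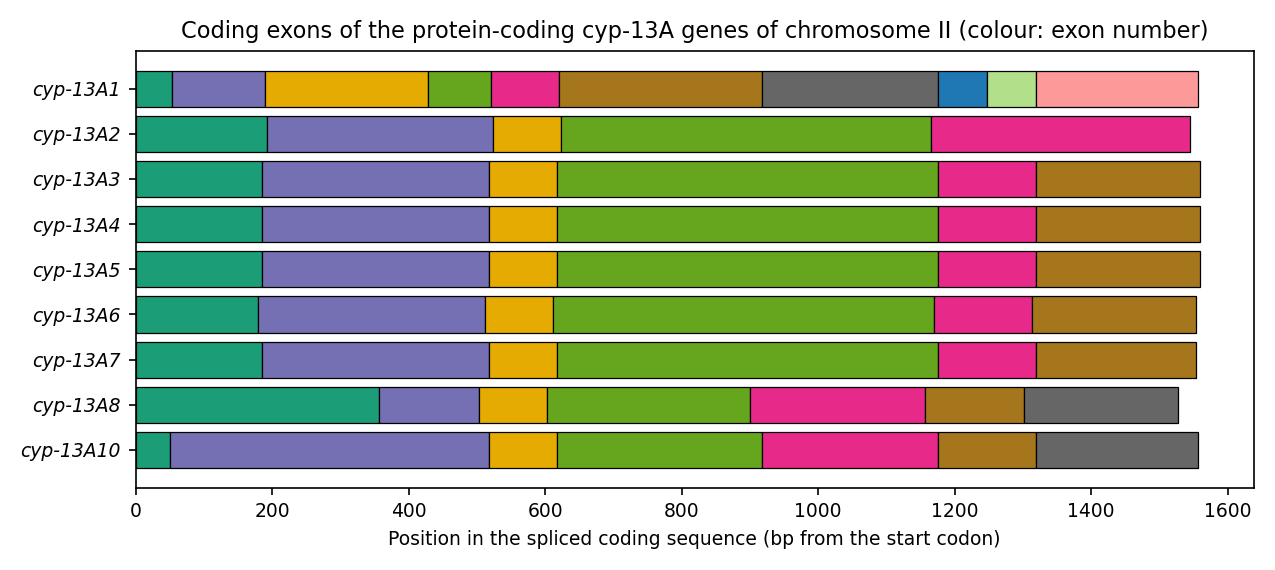
Lengths of the coding exons, joined end to end from the start codon (bp), for the protein-coding cyp-13A genes of chromosome II, with a colour per exon number. Exons 2 to 5 have the same 4 lengths in cyp-13A3 to cyp-13A7 and not in the other 4 genes shown.

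Worms on vitamin D carried more transcript of all 5 genes. Fold changes ran from 2.09 for cyp-13A3 to 9.67 for cyp-13A7, with a median log2 fold change of 1.48 against -0.0029 over all 13460 tested genes. All 5 were called higher by edgeR's quasi-likelihood test at an adjusted p under 0.05, where 1.75% of all tested genes were called higher and 1.9% lower. All 5 had passed the filter on low counts, 4 of them in all 12 libraries. Since the genes were picked from these calls, nothing is read from that count. The vitamin D values lay wholly above the vehicle values for 3 of the 5 (cyp-13A4, cyp-13A5 and cyp-13A7), against 1.98% of all tested genes. This separation follows in part from the same choice, and nothing is read from it either. Without vehicle libraries 2 and 3, the log2 fold changes were 1.20 for cyp-13A3, 1.41 for cyp-13A4, 2.45 for cyp-13A5, 1.32 for cyp-13A6 and 2.96 for cyp-13A7. All 5 were again called, but 14.8% of all tested genes were then called higher and 28.6% in either direction. With the sperm score as a covariate the values were 1.03, 1.52, 2.48, 1.17 and 3.41 in the same order, all 5 called, where 6.31% of all tested genes were called higher and 12.2% in either direction.

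**Figure D2:**
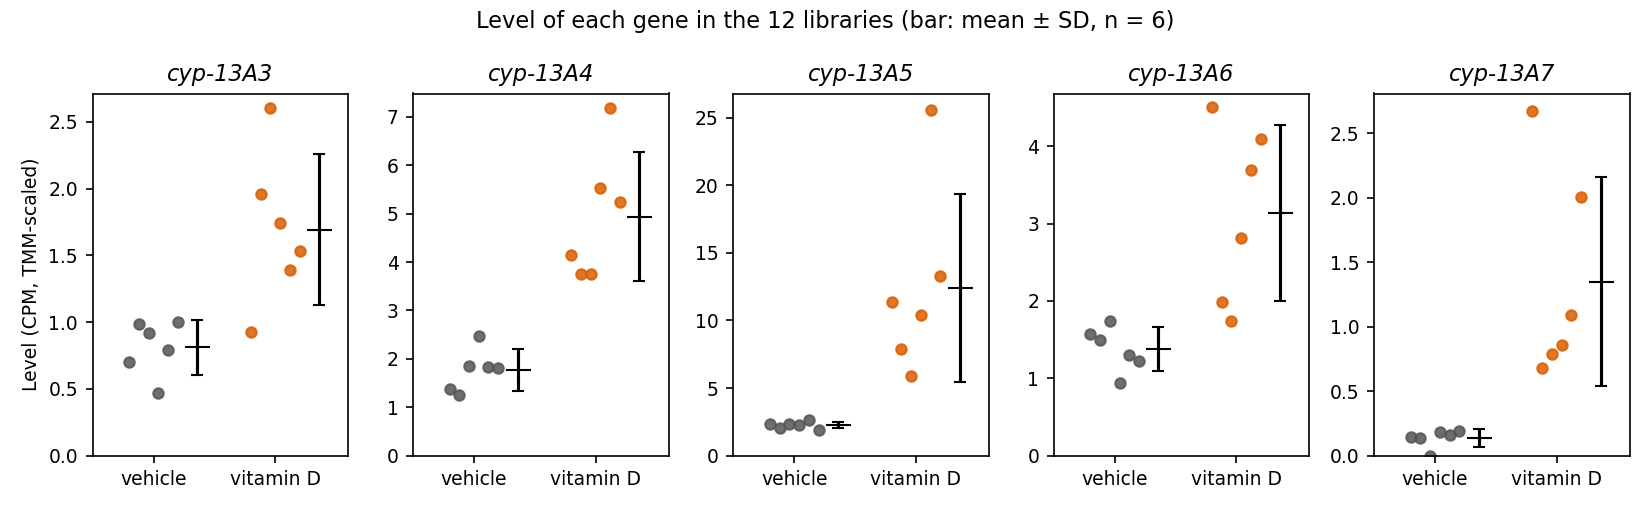
Level of each gene (CPM, TMM-scaled, linear axes from 0, each panel with its own scale) in the 6 vehicle (grey) and 6 vitamin D (orange) libraries, with mean ± SD beside the points. The groups do not overlap for cyp-13A4, cyp-13A5 and cyp-13A7, and overlap for cyp-13A3 and cyp-13A6.

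The gene with the largest fold was cyp-13A7, the rifampicin-responsive member. On vehicle it had 0 to 6 counts per library, with a lowest, median and highest level of 0, 0.152 and 0.193 CPM. On vitamin D it had 25 to 98 counts, with 0.681, 0.973 and 2.67 CPM. Every treated pool was well above the highest vehicle library. The mean went from 0.137 ± 0.0708 to 1.35 ± 0.807 CPM (SD, n = 6 and 6), a log2 fold change of 3.27 (SE 0.52, 95% interval 2.14 to 4.41). The 1 vehicle library with 0 counts was number 3, where a count of 0 allows up to 0.0915 CPM (3 counts, counting error only). No vehicle library reached the 0.286 CPM of the filter on low counts, whereas all 6 vitamin D libraries did. The gene was thus tested only because of its level on vitamin D.

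The most abundant of the 5 was cyp-13A5. Vehicle libraries were tightly grouped, with a lowest, median and highest level of 1.93, 2.29 and 2.60 CPM. Vitamin D libraries had 5.90, 10.9 and 25.6 CPM. Every treated pool was above every vehicle pool, and treated pool 5 was far above the other treated pools, the next being pool 6 with 13.3 CPM. The mean rose from 2.25 ± 0.230 to 12.4 ± 6.96 CPM (SD, n = 6 and 6), a log2 fold change of 2.46 (SE 0.31, 95% interval 1.79 to 3.13). Without treated pool 5 it was 2.12.

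For cyp-13A4, vehicle libraries had a lowest, median and highest level of 1.26, 1.82 and 2.46 CPM and vitamin D libraries 3.76, 4.69 and 7.19 CPM. The groups did not overlap. The highest vehicle library was number 4 and the highest treated pool was number 5. The mean rose from 1.77 ± 0.428 to 4.94 ± 1.34 CPM (SD, n = 6 and 6), a log2 fold change of 1.48 (SE 0.21, 95% interval 1.02 to 1.94).

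The remaining 2 genes changed least and overlapped between groups. Levels of cyp-13A6 were 0.936, 1.40 and 1.74 CPM on vehicle (lowest, median, highest) and 1.74, 3.25 and 4.50 CPM on vitamin D. Only treated pool 3 reached down to the vehicle range, by a small margin under vehicle library 3. The log2 fold change was 1.18 (SE 0.26, 95% interval 0.63 to 1.74). Levels of cyp-13A3 were 0.468, 0.854 and 1.00 CPM on vehicle and 0.928, 1.64 and 2.61 CPM on vitamin D. Here the low treated pool was number 1, which lay inside the vehicle range. The log2 fold change was 1.06 (SE 0.26, 95% interval 0.50 to 1.63). These 2 calls were the least stable: that of cyp-13A3 was lost in 13 of 20 alternative settings and that of cyp-13A6 in 6 of 20, all with the same direction, while those of cyp-13A4, cyp-13A5 and cyp-13A7 held in all 20.

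**Figure D3:**
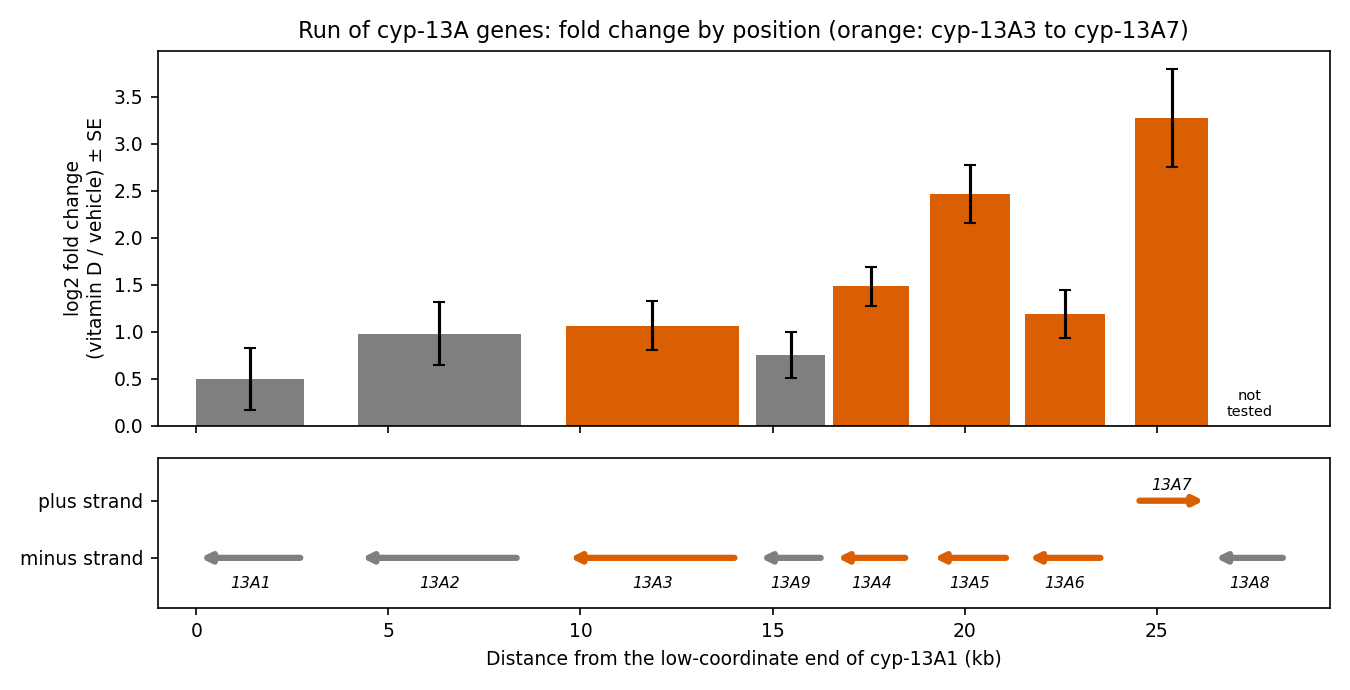
Top: log2 fold change of vitamin D over vehicle with its SE for each gene of the run, drawn over the gene's position (kb from the low-coordinate end of cyp-13A1). Bottom: gene extents, with arrows in the direction of transcription. The bar of cyp-13A5 (2.46) stands above those on either side of it, and cyp-13A6 (1.18) lies between cyp-13A5 and cyp-13A7 (3.27). On the other side of cyp-13A7 no bar is drawn, as cyp-13A8 was not tested.

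Fold changes tended to be larger towards the high-coordinate end of the run, though not step by step. From the low-coordinate end, the log2 values were 0.50 for cyp-13A1, 0.98 for cyp-13A2, 1.06 for cyp-13A3, 0.75 for cyp-13A9 and 1.48 for cyp-13A4. A trend with position was not tested. The gene between cyp-13A5 and cyp-13A7, cyp-13A6, had a log2 fold change of 1.18 against 2.46 and 3.27 beside it. The 95% intervals of cyp-13A5 and cyp-13A7 (1.79 to 3.13 and 2.14 to 4.41) overlap each other and lie wholly above those of cyp-13A3 and cyp-13A6 (0.50 to 1.63 and 0.63 to 1.74). That of cyp-13A4 (1.02 to 1.94) overlaps those of cyp-13A3, cyp-13A6 and cyp-13A5 and not that of cyp-13A7. These differences come from the same contrast that chose the genes and were not tested.

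Per kb of exon, the order of the levels was the same in both groups: cyp-13A5, cyp-13A4, cyp-13A6, cyp-13A3, cyp-13A7. On vehicle the means were 1.35 ± 0.138, 1.07 ± 0.259, 0.784 ± 0.162, 0.483 ± 0.121 and 0.0843 ± 0.0436 CPM per kb (SD, n = 6). Of neighbours in that order, only cyp-13A3 and cyp-13A7 had ranges that did not overlap, with cyp-13A3 5.73 times higher. On vitamin D the means were 7.45 ± 4.18, 2.98 ± 0.807, 1.78 ± 0.647, 1.01 ± 0.339 and 0.832 ± 0.497 CPM per kb (SD, n = 6), and the ranges of all neighbours overlapped. Within libraries, cyp-13A5 was above cyp-13A4 in 5 of 6 vehicle pools and in 6 of 6 treated pools. The lead of cyp-13A3 over cyp-13A7 held in 6 of 6 vehicle pools and in 4 of 6 treated pools.

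Summed over the 5 genes, the level went from 3.77 ± 0.210 CPM per kb on vehicle to 14.1 ± 5.21 on vitamin D (SD, n = 6 and 6), 3.73 times as much. Vehicle sums lay between 3.52 and 4.05, libraries 2 and 3 being the lowest and the highest, and treated sums lay between 8.84 and 23.3. The make-up of the sum shifted as well. On average cyp-13A5 took 35.8% ± 2.72 of it on vehicle and 50.5% ± 8.45 on vitamin D, and cyp-13A7 took 2.27% ± 1.17 and 6.08% ± 3.24. The shares of cyp-13A4 (28.2% ± 6.32 to 21.98% ± 3.61), cyp-13A6 (20.8% ± 4.32 to 12.9% ± 3.22) and cyp-13A3 (12.9% ± 3.44 to 8.51% ± 5.43) were smaller on vitamin D (SD, n = 6 and 6 throughout). In counts, the ratio of cyp-13A7 to its divergent neighbour cyp-13A6 was at most 0.200 in a vehicle library and at least 0.295 in a treated one. The vehicle ratios rest on 0 to 6 counts of cyp-13A7, a gene tested only because of its level on vitamin D. Both the shares and this ratio restate fold changes of the contrast that chose the genes, and were not tested.

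Treated pools differed among themselves by more than counting alone gives, and the genes did not share 1 order of pools. For cyp-13A4 the coefficient of variation was 24.3% on vehicle and 27.04% on vitamin D, and for cyp-13A3 it was 25.1% and 33.5%. On vehicle both were already above the 13.3% and 19.7% that counting error alone gives, as was cyp-13A6 with 20.7% against 15.1%. The coefficient of variation of cyp-13A5 was 10.2% on vehicle, where counting error alone gives 11.8%, and 56.1% on vitamin D, where it gives 4.63%. For cyp-13A7 it was 51.7% on vehicle, against 48.04% from counting, and 59.8% on vitamin D, against 14.1%. The highest treated pool was number 5 for cyp-13A5 and cyp-13A4, number 1 for cyp-13A7 and cyp-13A6, and number 3 for cyp-13A3. Pools 1, 6 and 5 were the top 3 for both cyp-13A6 and cyp-13A7, in that order, and for cyp-13A5 in the order 5, 6 and 1. For cyp-13A4 the top 3 were pools 5, 4 and 6, and for cyp-13A3 pools 1, 6 and 5 were the lowest 3. The sperm score of treated pool 5 was 0.75, the highest among treated pools, and that of pool 1 was -0.48, the lowest. Its part in these orders was not tested.

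**Figure D4:**
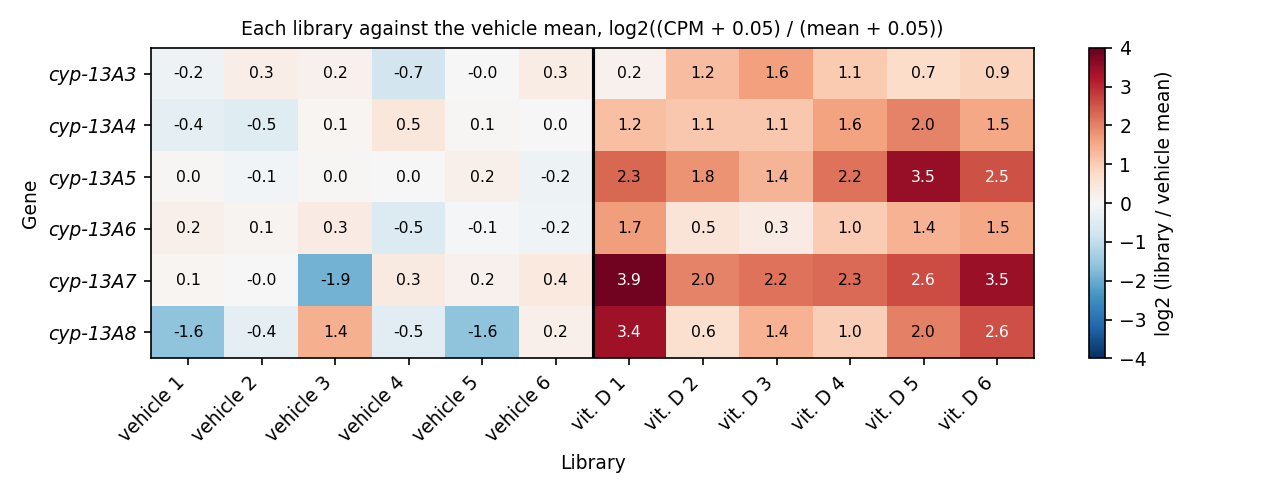
log2 of each library's level over the vehicle mean, with 0.05 CPM added to both, for the 5 genes and cyp-13A8 (rows) in the 12 libraries (columns, line between groups). The treated columns are above 0 in every row, with peaks in pool 5 for cyp-13A5, pool 1 for cyp-13A7 and cyp-13A8, and pool 3 for cyp-13A3.

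The other tested genes of the family had positive log2 fold changes that did not pass the test. Of the 8 listed cyp-13 genes beside the members, 4 were tested, 0 were called by edgeR and 2 of them had an unadjusted p under 0.05. For comparison, 2247 of all 13460 tested genes had an unadjusted edgeR p under 0.05. The pseudogene cyp-13A9, which was not listed and is added here because it lies in the run, had a log2 fold change of 0.75 (SE 0.24) and also did not pass. With DESeq2, 4 genes of this group of 9 were called (cyp-13A2, cyp-13A8, cyp-13A9 and cyp-13A10). DESeq2 called 1136 genes in all, against 492 by edgeR. On vehicle, cyp-13A2 was the most abundant gene of the run, and its levels were 27.01 and 33.6 CPM in libraries 2 and 3, 20.8 in library 1 and 8.30 to 12.7 in libraries 4 to 6. Treated pools had 24.8 to 53.8 CPM, and the log2 fold change was 0.98 (SE 0.33). For cyp-13A10, which lies outside the run at 9660839 to 9662884, vehicle levels ran from 0.249 to 5.06 CPM and treated levels from 3.83 to 13.9 CPM (1.84, SE 0.59). The values for cyp-13A1 and for cyp-13B1 on chromosome X were 0.50 (SE 0.33) and 0.41 (SE 0.47).

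The tail-to-tail neighbour of cyp-13A7, cyp-13A8, had too few counts to be tested. It had 0 to 12 counts in vehicle libraries and 7 to 58 in treated ones, or 0.104 ± 0.137 and 0.638 ± 0.525 CPM (SD, n = 6 and 6). Its treated levels were highest in pools 1, 6 and 5, as for cyp-13A7, at 1.58, 0.872 and 0.570 CPM. These pools were not particular to the pair. Among the tested cyp-13 genes they were also highest for cyp-13A5, cyp-13A6, cyp-13A2, cyp-13A9, cyp-13A10 and cyp-13B1. They were not for cyp-13A1, cyp-13A3 or cyp-13A4. In treated libraries cyp-13A7 had 1.69 to 3.57 times the counts of cyp-13A8. With no filter on low counts the log2 fold change of cyp-13A8 was 2.58 (SE 0.78) and was not called. The genes cyp-13A11 and cyp-13A12 lie on chromosome III and were listed at 0, and cyp-13B2 had 12 counts in all vehicle libraries together and 19 in all treated ones. Outside the run, nssp-22 had a log2 fold change of 0.06 (SE 0.25) and eyg-1 of 0.48 (SE 0.34), and neither passed.

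Among all 65 tested genes with a cyp symbol, the 5 genes ranked 2, 4, 9, 13 and 15 by fold change (cyp-13A7, cyp-13A5, cyp-13A4, cyp-13A6 and cyp-13A3). Since they were picked from the calls of this contrast, high places by fold change follow in part from that choice. By level per kb, counted from the highest, cyp-13A5 ranked 39 on vehicle and 23 on vitamin D, cyp-13A4 ranked 43 and 36, and cyp-13A7 ranked 64 and 51. Of the other 60, 7 were called higher and 4 lower, with a median log2 fold change of 0.17. In the CYP3 clan outside CYP13, 3 of 7 listed genes were tested and 1 rose: cyp-25A6, from 0.586 ± 0.131 to 2.09 ± 0.615 CPM (SD, n = 6 and 6; log2 fold change 1.83, SE 0.23, edgeR adjusted p = 0.000925). The values for cyp-25A5 (0.21, SE 0.19) and cyp-43A1 (0.18, SE 0.18) did not pass. For comparison, 3.66% of all tested genes were called in either direction.

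**Figure D5:**
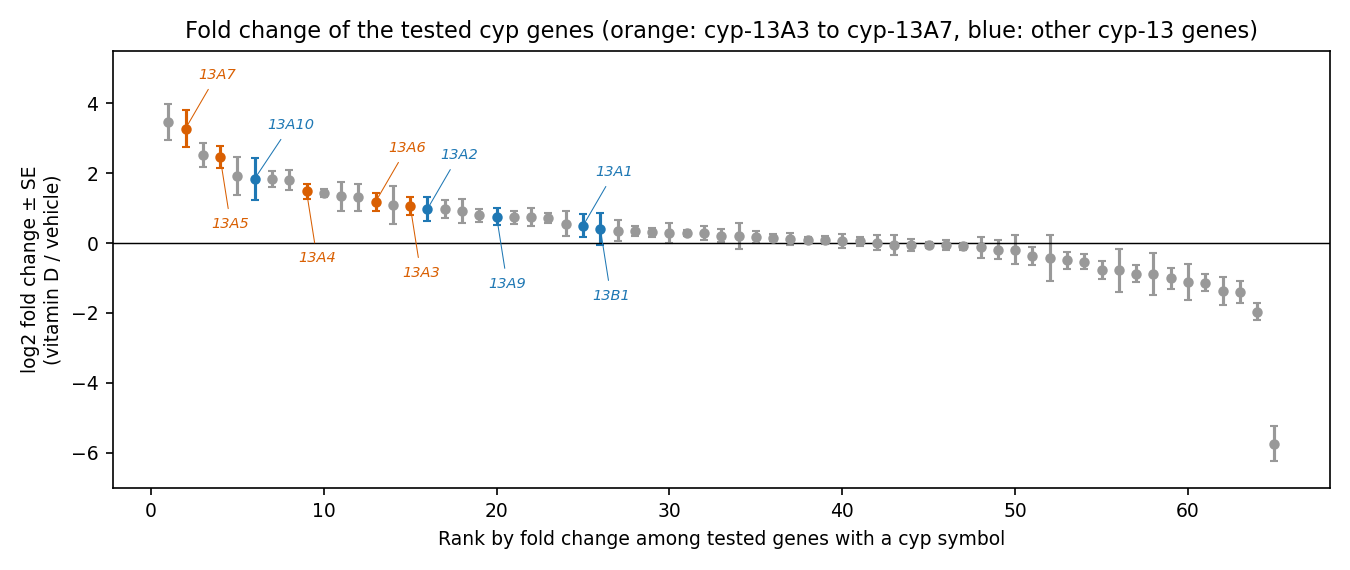
log2 fold change with SE of the 65 tested genes with a cyp symbol, in order of fold change. The 5 genes (orange), picked from the calls of this contrast, lie within the first 15 places, and the other tested cyp-13 genes (blue) lie between places 6 and 26.

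The genes that serve P450 enzymes in general were read against the 1.75% of all tested genes called higher and the 1.9% called lower. Of 3 listed electron partners, the reductase gene emb-8 lies on chromosome III and was listed at 0. The cytochrome b5 gene cytb-5.2 fell from 173 ± 8.91 to 143 ± 4.47 CPM (SD, n = 6 and 6; log2 fold change -0.27, SE 0.04, edgeR adjusted p = 0.00544), a call that was lost in 2 of 20 alternative settings. Over those 20 settings its log2 fold change ran from -0.29 to -0.07. The second cytochrome b5 gene, cytb-5.1, did not pass (-0.22, SE 0.20). Among 8 genes of heme uptake and transport, which matter to worms because they cannot make heme, 2 rose, 0 fell and 6 did not pass, with a median of -0.11. The gene hrg-2, for a heme-binding membrane protein, rose from 0.622 ± 0.192 to 1.87 ± 0.493 CPM, and hrg-7, for a secreted aspartic protease, from 355 ± 18.6 to 477 ± 50.1 CPM (SD, n = 6 and 6; edgeR adjusted p = 0.00428 and 0.00602). The call of hrg-2 held in all 20 alternative settings, and that of hrg-7 was lost in 1. The heme importer gene hrg-1 (-0.44, SE 0.20) and the exporter gene mrp-5 (0.28, SE 0.08) did not pass.

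Of 18 listed regulators of detoxification and metabolism, 15 were tested, 0 were called by edgeR, 1 had an unadjusted p under 0.05 and 1 was called by DESeq2, with a median log2 fold change of 0.00. Of all 13460 tested genes, 2247 had an unadjusted edgeR p under 0.05, and DESeq2 called 1136 genes in all. With 3.66% of all tested genes called by edgeR in either direction, a list of this length would hold few calls, and nothing is read from these counts. The 4 with the smallest p-values were skn-1 (0.23, SE 0.07), the receptor gene daf-12 (0.31, SE 0.16), nhr-68 (-0.09, SE 0.06) and nhr-86 (-0.10, SE 0.07). The summed levels of each list of tissue markers overlapped between groups. Such sums are led by their most abundant genes and say little of single markers. In the intestinal sum these were asp-1 (0.21, SE 0.10) and cpr-1 (-0.56, SE 0.28), with vehicle means of 3229 and 1628 CPM, and neither was called. Summed intestinal markers, of which 1 of 13 tested rose (erm-1), lay between 6162 and 9374 CPM on vehicle and between 7140 and 8503 CPM on vitamin D. Summed hypodermal markers, 0 of 10 called, lay between 5327 and 9907 CPM and between 4747 and 7936 CPM. The summed sperm markers, 0 of 37 called, lay between 705 and 5970 CPM on vehicle and between 1713 and 3902 CPM on vitamin D. Muscle markers had 1 of 10 called (unc-54, higher; the calls of erm-1 and unc-54 were lost in 9 and 11 of 20 alternative settings), and oocyte, pharynx and neuron markers 0 of 11, 0 of 9 and 0 of 7. Their part in the levels of the cyp-13A genes was not tested.

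The genes whose profile over the 12 libraries was most like that of each member lay mostly elsewhere in the genome. Likeness was the root mean square difference of log2 levels, each gene centred on its own mean over the 12 libraries, against 13459 other tested genes. These profiles contain the contrast by which the 5 genes were chosen, so the places of the members among each other partly restate that choice. Closest to cyp-13A5 were mul-1 (0.34), ptr-22 (0.35) and F55G11.2 (0.44). Closest to cyp-13A4 were dod-24 (0.26), dod-17 (0.26) and gst-7 (0.27), the last a glutathione S-transferase gene of chromosome II. For cyp-13A6 they were the cysteine protease gene cpr-3 (0.23), F58B4.5 (0.27) and the P450 gene cyp-33C8 (0.29). For cyp-13A7 they were ech-9 (0.57), F33H12.7 (0.60) and spp-9 (0.61). For cyp-13A3 they were Y116A8C.43 (0.28), 21ur-843 (0.29) and W01A11.1 (0.32). Seen from cyp-13A7, cyp-13A5 was the 9th closest of all tested genes (0.81), and seen from cyp-13A5, cyp-13A4 was the 15th (0.54). From cyp-13A3 no other member came closer than place 5138 (cyp-13A4, 0.65), though the pseudogene cyp-13A9 was at place 3379 (0.62). Seen from cyp-13A4, cyp-13A9 was at place 65 (0.50), ahead of every member. Seen from cyp-13A6, cyp-13A2 was at place 42 (0.39) and cyp-13A9 at place 169 (0.47), again ahead of every member. Places depend on the gene they are counted from: seen from cyp-13A4, cyp-13A3 was at place 356.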

How the data were processed

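The authors deposited raw read counts per gene and a table of CPM, which per the file itself equals count over library total times 1000000 to within 2.91e-11 and was used only for that check. No source used here gives the aligner, counting tool, genome build or strand; edgeR 3.12.1 is named in the submitters' processing notes. Columns were matched to samples by the descriptions in the labels. Of 27928 sequence names, 27187 matched a single gene of the WBcel235 annotation (Ensembl), 3 matched several and 738 none.

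Counts were tested with edgeR 4.0.16 in R 4.3.3: filterByExpr (minimum count 10, total 15), TMM factors, robust quasi-likelihood fit with treatment as the only term, two-sided, Benjamini-Hochberg adjustment over 13460 genes, threshold 0.05. The fit was tested on simulated data. SEs and intervals derive from the fit. CPM in the text are TMM-scaled, and exon length is the union of annotated exons. Within groups, no library was a copy of another (lowest chi-square per degree of freedom 7.4). Total counts per library ran from 30203731 to 38720736, so a count of 0 allows 0.0743 to 0.102 CPM; this covers counting error only.

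The members and gene lists were chosen with earlier results of these data known. Named genes were the members, the other cyp-13 genes, the nearest coding gene on each side of the run, up to 4 genes per list with the smallest p, and the 3 most alike in profile. Alternatives were RLE factors, total counts, no filter, DESeq2 1.42.0, a replicate block, leaving out each library or vehicle libraries 2 and 3, the median of sperm genes as a covariate, and removal of a trend on exon length (lowess, span 0.3). Protein and promoter sequences were not analysed here.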

Additional observations from a re-analysis of the deposited data

Results flagged for a closer look

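In 1 of 10 sets of 6 libraries (5 genes in 2 groups), 1 library stood apart from the rest by Dixon's criterion: vehicle library 3 had 0 CPM of cyp-13A7, from 0 counts, where the other vehicle libraries had 4 to 6 counts. Chance alone flags about 1 in 20 sets.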

How the results depend on the processing

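No member changed sign in any of the 20 alternatives. The log2 fold change ranged from 1.34 to 1.59 for cyp-13A4, from 2.12 to 2.60 for cyp-13A5 and from 2.96 to 3.41 for cyp-13A7, always past the threshold. That of cyp-13A3 missed it with no filter on low counts (1.07), with the length trend removed (1.03), with the replicate block (1.03) and in 10 of the 12 fits without a single library (0.90 to 1.19 over all 12). That of cyp-13A6 missed it with the block (1.13) and without vehicle library 1 or 4 or vitamin D library 1, 4 or 6 (1.05 to 1.31 over the 12 fits). The number of members called was 3 to 5 over single libraries left out and 3 with the replicate block. Over all genes, 492 calls became 1136 with DESeq2, 252 with the length trend removed, 1639 with the sperm score as a covariate, 3924 without vehicle libraries 2 and 3, and 260 to 625 without a single library (lowest without vehicle library 1). With the block, 136 genes were called. No pairing of pools by replicate number was seen: same-numbered deviations correlated from -0.42 to 0.44, and only vehicle library 5 was closest to its own number. Vehicle libraries 1, 4, 5 and 6 were all closest to vitamin D library 5. Whether same-numbered pools were handled together was not tested. With total counts 507 genes were called higher and 223 lower, against 236 and 256, and with the length trend removed 188 and 64. The causes were not tested. The low counts of cyp-13A7 on vehicle limit its fold.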

Other observations

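Of the other cyp-13 genes, none was called by edgeR with all 12 libraries, where 3 had an unadjusted p under 0.05 and 4 were called by DESeq2. For comparison, 2247 of all 13460 tested genes had an unadjusted edgeR p under 0.05, and DESeq2 called 1136 genes in all. Without vehicle libraries 2 and 3, where 28.6% of all tested genes were called, edgeR called cyp-13A2 (log2 fold change 1.498, SE 0.29), cyp-13A8 (3.68, SE 0.91), cyp-13A9 (0.95, SE 0.24), cyp-13A10 (2.68, SE 0.61) and cyp-13B1 (1.27, SE 0.38), all higher on vitamin D, and not cyp-13A1 (0.35, SE 0.38). With the sperm score as a covariate, where 12.2% of all tested genes were called, cyp-13A2 (1.00, SE 0.25) and cyp-13A10 (1.95, SE 0.47) were called, and cyp-13A9 (0.72, SE 0.23) and cyp-13B1 (0.49, SE 0.29) were not.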
